A study of Mus musculus with 12 samples.

Results

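The livers of 3 Lats2-CKO mice on a high-cholesterol diet, called the Paigen diet in the labels, were compared with those of 3 wild-type mice. Both groups had the same diet, and together they are 6 of the 12 arrays of the series. The arrays were chosen by their labels alone, and no measured value entered the choice. All mice were male and 8 weeks old at the start of the diet, which lasted 9 weeks and contained 1.25% cholesterol. The other 6 arrays came from mice of both genotypes, 3 each, on a chow without cholesterol (normal diet). Each array held the liver RNA of 1 mouse, and the labels call the 3 arrays of a group biological replicates. The mutant line is called Lats2-CKO in some labels and Lats2-KO in others. Neither the promoter that drove the deletion, nor the cells in which it took place, nor the deleted part of the gene is given there. Values are log2 expression after RMA, a normalisation for Affymetrix arrays, so a difference of 1 is a 2-fold difference. All 22180 genes with a probe set of 1 gene symbol were tested, and a difference is Lats2-CKO minus wild type unless stated.

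LATS2 is a kinase of the Hippo pathway. With its relative LATS1 it phosphorylates the co-activators YAP and TAZ, which holds them outside the nucleus and keeps them from the TEAD transcription factors. In liver the pathway is known for its control of organ size and of the identity of hepatocytes and bile duct cells. LATS2 has also been tied to p53 and to SREBP, the factor that drives cholesterol and fatty acid synthesis when sterols are scarce. Cholesterol feeding loads hepatocytes with sterol and draws in macrophages, while Kupffer cells, the resident macrophages of the liver, line its sinusoids together with a specialised endothelium.

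Lats2 read 5.12, 5.71 and 5.97 on the wild-type arrays and 4.62, 4.89 and 4.99 on the Lats2-CKO arrays. The groups did not overlap, although the lowest wild-type value lay close to the highest Lats2-CKO value. The difference was -0.77 ± 0.23 (SE, 3 arrays against 3), or 1.70-fold, with an unadjusted limma p of 0.00596 that did not pass after adjustment over all genes (limma adjusted p = 1). Wild-type replicate 3 had the highest Lats2 level of all, so on this gene it stood with its labelled group. Where the probe set lies relative to the deleted part is not given in the sources used here, so how complete the deletion was cannot be read from these values.

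No gene passed the test between the genotypes. By limma, 0 of 22180 genes (0%) had an adjusted p under 0.05, the smallest adjusted p was 0.99999, and 650 genes (2.93%) had an unadjusted p under 0.05, against 1109 by chance. Of the 650 genes, 219 (0.987%) were higher and 431 (1.94%) lower in Lats2-CKO liver. The 3 Lats2-CKO values lay above all 3 wild-type values in 902 genes (4.07%) and below them in 748 (3.37%). A difference of at least 2-fold was fitted for 99 genes, 19 higher and 80 lower. The typical precision was a standard error of 0.14, the median over genes, with median SDs of 0.142 within the wild-type group and 0.139 within the Lats2-CKO group. All values in the following paragraphs are therefore descriptions of these livers, and no gene named in them passed with all arrays.

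Wild-type replicate 3 lay nearer to every Lats2-CKO array than to the other arrays of its own group. Between it and wild-type replicates 1 and 2, 500 and 492 genes lay more than 1 log2 unit apart. Between it and Lats2-CKO replicates 1, 2 and 3 the counts were 191, 207 and 75. Its correlation over genes was 0.9948 with Lats2-CKO replicate 3, against 0.9846 and 0.9865 with its group mates. These correlations are over genes, which are not independent replicates. Its closeness was not to the mutant alone, since 178 genes separated it from wild-type normal-diet replicate 3 (correlation 0.9924), fewer than from Lats2-CKO replicates 1 and 2. Wild-type replicates 1 and 2 were not close to each other either, since 685 genes separated them, more than separated either from replicate 3.

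**Figure D1:**
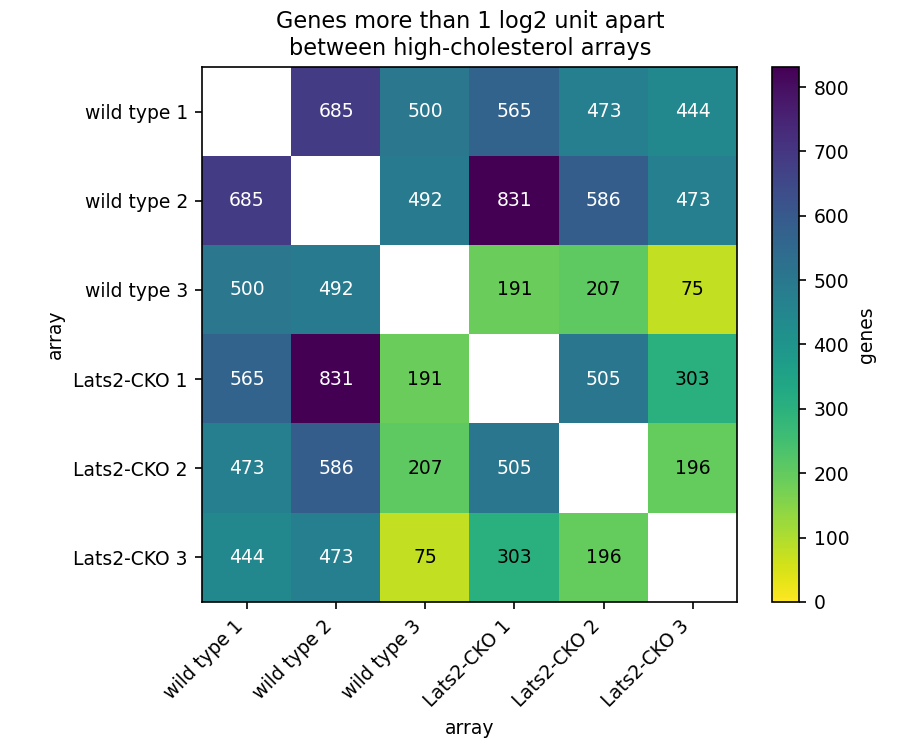
Each cell gives the number of genes, of 22180, that differ by more than 1 log2 unit between a pair of high-cholesterol arrays, with darker cells for more genes. The row of wild type 3 has 500 and 492 genes against its own group and 75 to 207 against the Lats2-CKO arrays, and the pair of wild type 1 and 2 has 685.

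By the number of genes that stand alone, replicate 3 was the least deviant of the wild-type arrays. It lay more than 1 log2 unit outside both group mates in 133 genes, of which 111 were below and 22 above. Replicate 1 did so in 224 genes (118 below, 106 above) and replicate 2 in 252 (34 below, 218 above). Among the Lats2-CKO arrays the counts were 146, 132 and 30. The genes of replicate 3 were mostly low ones and those of replicate 2 mostly high ones. Over all genes replicate 3 lay below both mates in 29.1% and above both in 30.5%.

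In genes far higher on wild-type replicates 1 and 2 than in the mutant, replicate 3 lay nearer to the mutant mean than to its mates. Both replicates 1 and 2 read more than 1 log2 unit above all 3 Lats2-CKO arrays in 25 genes, and in all 25 replicate 3 was nearer to the Lats2-CKO mean than to its mates. No gene was that far above on replicates 1 and 3 together, and 1 gene was on replicates 2 and 3. In the opposite direction, 4 genes were more than 1 log2 unit below on replicates 1 and 2, with replicate 3 nearer to the mutant mean in 2 of them. The count was 1 on replicates 1 and 3, and 1 on replicates 2 and 3. Prelid2 is counted for every pair, since the wild-type arrays read at most 4.22 and the Lats2-CKO arrays at least 6.13. The chemokine Cxcl13, which guides B cells, and the myeloid membrane protein gene Ms4a7 were among the 25. Being nearer did not always place replicate 3 within the Lats2-CKO range. It lay within that range in Ms4a7, above it in Cxcl13 (6.01 against at most 5.65) and below it in Sik1 (4.89 against at least 5.02).

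The genes with the widest gap on replicate 3 included macrophage and clock-linked genes below and liver genes above. Ms4a7 read 3.27 on replicate 3, against 6.23 and 5.75 on replicates 1 and 2 and 3.32, 2.90 and 4.08 on the Lats2-CKO arrays. Clec12a, a myeloid inhibitory lectin receptor, read 7.93, 7.84 and 6.0 on wild-type replicates 1 to 3, against 5.86, 6.58 and 6.42. In both genes replicate 3 lay within the Lats2-CKO range and far from its mates. Sik1, a salt-inducible kinase, read 7.06, 7.31 and 4.89, and Ciart, a repressor in the circadian clock, 6.28, 6.71 and 4.40. On the upper side, Selenbp2, a selenium-binding protein gene expressed in liver, read 6.56, 6.91 and 9.10. E2f8, a cell cycle repressor that shapes hepatocyte ploidy, read 3.73, 4.14 and 5.50, and the vasopressin receptor Avpr1a read 4.01, 4.40 and 5.60. The Lats2-CKO arrays read 5.02, 5.96 and 5.47 for Sik1 and 4.25, 5.12 and 6.16 for Ciart. They read 6.97, 8.92 and 7.8 for Selenbp2, 4.67, 6.2 and 5.08 for E2f8, and 5.19, 4.59 and 5.38 for Avpr1a. All these genes were picked for the gap of replicate 3, with replicates 1 and 2 within 0.5 log2 units of each other. That replicate 3 was the array apart from its mates therefore follows from the choice. The time of day of sampling is not given in the labels.

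Without wild-type replicate 3, the same limma fit called 22 genes (0.0992%), 1 higher and 21 lower (0.0947%), and 1168 genes had an unadjusted p under 0.05, 869 lower (3.92%) and 299 higher (1.35%). The adjusted p of the 22 ran from 0.00582 to 0.0457 in limma, and the lower genes had differences of -0.85 to -2.56, against -0.62 to -1.65 with all arrays. Because these genes passed only once replicate 3 was left out, its position in them is largely set by that choice and supports nothing. As a description, it lay within the Lats2-CKO range in 10 of the 22. With all arrays, 21 of the 22 had an unadjusted limma p under 0.05, and in 7 the groups did not overlap. The call also rested on the normal-diet arrays that share the estimate of spread. Fitted on the high-cholesterol arrays alone without replicate 3, limma called 0 genes, with 1100 at an unadjusted p under 0.05.

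The 22 genes called without replicate 3 were named after their values were seen, and 1 of them, the neutrophil granule gene Ngp, was in a gene list used here. The examples that follow were picked from the 21 genes that fell, and no theme was tested among them. Syk, a kinase that relays signals from immune receptors, read 5.13, 5.92 and 4.20 in wild type and 3.81, 4.15 and 4.17 in Lats2-CKO liver. Sirpa, the receptor through which macrophages read the CD47 signal on other cells, read 7.65, 7.87 and 6.09 against 5.82, 5.98 and 6.32. Laptm5, a lysosomal membrane protein of blood cells, read 5.69, 5.47 and 4.38 against 4.04, 4.65 and 4.26. In these 3 genes wild-type replicates 1 and 2 were the highest arrays, with replicate 3 at or just above the Lats2-CKO level. The same order held for Lgmn, a lysosomal protease, at 10.33, 10.18 and 9.15 against 9.15, 9.34 and 9.32. Irak3, which damps Toll-like receptor signalling, read 4.79, 5.73 and 3.14 against 3.18, 3.28 and 3.49. Vsir, an immune checkpoint protein, read 5.89, 5.88 and 5.05 against 4.72, 4.57 and 4.66, which did not overlap. The others were Ms4a4a, Ms4a7, Gpr137b, Rab8b, Epb41l2, Anxa3, Slc38a1, Arhgap25, Cd300c2, Cd300ld, Clec12a, Lpcat1, Igsf6 and Cotl1. The 1 gene that rose, Gm3893, is a predicted gene and read 3.19, 3.05 and 4.58 against 4.82, 5.36 and 4.89.

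**Figure D2:**
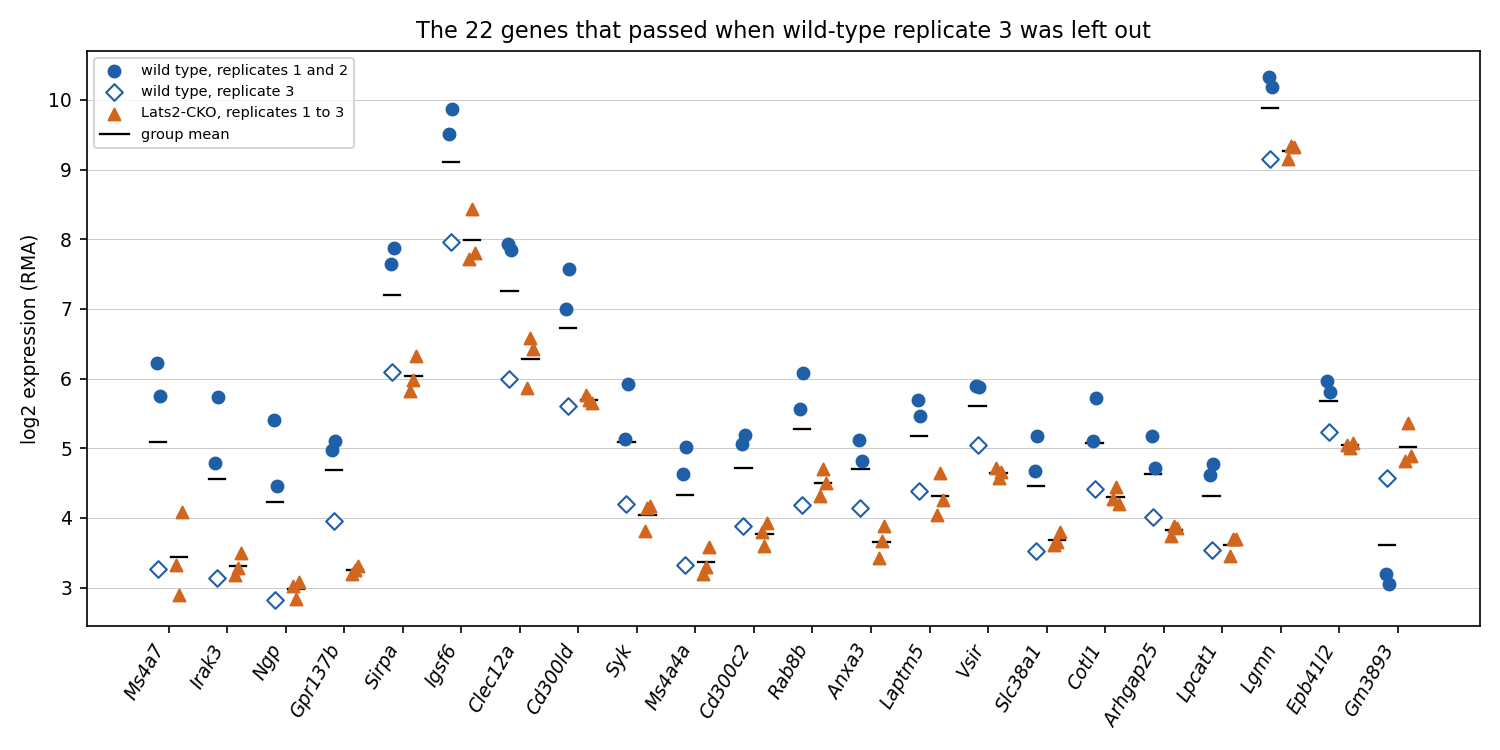
Log2 expression on the 6 high-cholesterol arrays is shown for the 22 genes that passed in limma when wild-type replicate 3 was left out, with circles for wild-type replicates 1 and 2, open diamonds for replicate 3, triangles for Lats2-CKO and bars for the means of all 3 arrays of a group. The diamonds lie toward the triangles, as for Ms4a7 at 3.27 between triangles of 2.90 to 4.08, which largely follows from how the genes were chosen.

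PU.1, a transcription factor of myeloid cells, binds a purine-rich box. The 3 promoters shown hold such a box. Cd300ld and Arhgap25 come from the genes called without wild-type replicate 3, and C1qc comes from the Kupffer cell and macrophage list. The match in the endothelial list is not shown. The box searched was GAGGAAGT on either strand (ACTTCCTC when read on the other strand, which does not overlap it), in the 250 bases before the start of transcription given by RefSeq on GRCm38.p6. It was found in 2 of the 16 called genes that had a promoter sequence (12.5%), in 1 of 18 Kupffer cell and macrophage markers (5.6%), in 1 of 12 liver endothelial cell markers (8.3%) and in 755 of all 27025 genes (2.79%). The box was chosen after the values were seen. Capitals mark it in the windows below, each 250 bases long and written 5′ to 3′ on the strand of the gene, which is the minus strand in all 3. Cd300ld encodes a myeloid activating receptor and its window is chr11:114989887-114990136. Arhgap25 encodes a Rac regulator of blood cells, with a window at chr6:87496328-87496577. C1qc encodes a chain of complement C1q made by macrophages, with a window at chr4:136892915-136893164.
Cd300ld: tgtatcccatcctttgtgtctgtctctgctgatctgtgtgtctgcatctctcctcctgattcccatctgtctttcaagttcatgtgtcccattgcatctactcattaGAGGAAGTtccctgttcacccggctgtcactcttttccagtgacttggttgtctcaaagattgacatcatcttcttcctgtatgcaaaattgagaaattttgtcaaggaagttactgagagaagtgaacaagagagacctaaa
Arhgap25: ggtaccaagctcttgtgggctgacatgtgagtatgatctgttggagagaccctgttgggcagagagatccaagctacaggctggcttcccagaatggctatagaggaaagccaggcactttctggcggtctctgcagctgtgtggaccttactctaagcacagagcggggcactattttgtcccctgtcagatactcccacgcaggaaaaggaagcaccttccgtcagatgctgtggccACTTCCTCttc
C1qc: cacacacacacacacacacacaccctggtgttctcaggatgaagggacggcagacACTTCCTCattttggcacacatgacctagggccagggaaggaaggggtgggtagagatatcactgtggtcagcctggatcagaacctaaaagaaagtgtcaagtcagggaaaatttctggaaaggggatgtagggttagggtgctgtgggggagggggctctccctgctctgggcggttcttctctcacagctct
The first base of the box lay 143 bases before the start in Cd300ld, 11 in Arhgap25 and 195 in C1qc. Cd300ld read 7.0, 7.57 and 5.61 in wild type and 5.76, 5.69 and 5.65 in Lats2-CKO liver. Arhgap25 read 5.17, 4.71 and 4.02 against 3.74, 3.88 and 3.86, and C1qc 7.10, 7.02 and 5.71 against 5.55, 5.87 and 6.19. Of the 3 genes, Arhgap25 alone kept its groups apart with all arrays. A match describes these letters and does not show that PU.1 was bound.

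Kupffer cell and macrophage markers were lower in Lats2-CKO liver in 21 of 23 members, with a median difference of -0.71 against 0.006 over all genes. By limma, 9 members had an unadjusted p under 0.05, all lower, against 1.94% of all genes, and 0 passed after adjustment over all genes. In 3 members the groups did not overlap with the mutant lower, against 3.37% of all genes. The median was -1.09 without wild-type replicate 3, which lay below both mates in 20 of 23 members, and then 18 members were lower at an unadjusted limma p under 0.05, against 3.92% of all genes. It was -0.47 without wild-type replicate 1, -0.48 without replicate 2 and -0.58 to -0.76 as each Lats2-CKO array was left out. The mean level of the 23 genes was 7.90, 8.40 and 7.07 in wild type and 6.81, 7.24 and 7.29 in Lats2-CKO liver, so that replicate 3 fell inside the mutant range. In whole liver RNA, fewer cells of a type and less RNA per cell cannot be told apart.

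The markers with separated groups were Mrc1, Lyz2 and Clec4f, with replicate 3 just above the highest Lats2-CKO array in Lyz2 and Clec4f. Mrc1, the mannose receptor of Kupffer and sinusoidal endothelial cells, read 8.89, 8.97 and 8.64 against 8.34, 7.77 and 8.21, a difference of -0.73 ± 0.16 (limma unadjusted p = 0.00107, adjusted p = 1). Lyz2, the lysozyme of myeloid cells, read 10.83, 9.69 and 9.20 against 8.93, 8.89 and 9.11. Clec4f, a lectin found on Kupffer cells, read 8.24, 8.41 and 8.24 against 7.81, 8.02 and 8.23, where the groups were barely apart. Csf1r, the receptor for the macrophage growth factor CSF1, read 8.19, 9.26 and 7.26 against 6.40, 7.33 and 7.45. Adgre1, which encodes the F4/80 antigen, read 7.89, 10.22 and 6.90 against 6.34, 7.05 and 7.16. Both overlapped through replicate 3. Timd4, a receptor of long-lived Kupffer cells, also overlapped at 6.93, 7.73 and 5.57 against 6.12, 6.90 and 6.62. Marco, a scavenger receptor, was high on wild-type replicate 2 alone at 8.49, with 3.68 to 4.44 on the other 5 arrays.

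On the normal diet, which shares no array with this comparison, 21 of the 23 markers were also lower in Lats2-CKO liver, with a median of -0.55. Wild-type normal-diet replicate 3 stood apart from its group and close to the high-cholesterol arrays numbered 3. It lay 178 genes from wild-type and 121 from Lats2-CKO high-cholesterol replicate 3, where wild-type normal-diet replicate 1 lay 773 and 746 away. Its mean level of cholesterol synthesis enzymes was 5.97, against 7.64 and 6.84 on its mates and 5.75 to 5.95 on the high-cholesterol diet. Without it the marker median on normal diet was -0.59. With all arrays, in 13 of the 23 markers the groups did not overlap with the mutant lower, against 7.36% of all genes on that diet. Of the 23 markers, 20 were lower on both diets. Their mean level on normal diet was 6.90, 7.05 and 6.78 in wild type and 6.51, 6.33 and 6.48 in Lats2-CKO liver, with no overlap. Cd5l, a secreted macrophage protein, read 8.39, 9.13 and 9.20 against 7.77, 7.63 and 7.61 on normal diet, and 10.75, 11.64 and 9.45 against 9.00, 9.68 and 9.87 on the high-cholesterol diet. The difference between the diets was tested as an interaction, and no marker of the list passed in limma, where 1 of 22180 genes (0.00451%) did.

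The medians of the lipid-associated macrophage and B cell lists each depended largely on a single wild-type liver. Markers of lipid-associated macrophages, which gather where lipid is taken up, had a median of -0.41 over 15 genes, yet their mean level was 7.74 on wild-type replicate 1 and 6.37 and 6.47 on replicates 2 and 3, against 6.23, 6.35 and 6.6 in Lats2-CKO liver. Gpnmb, a membrane glycoprotein of lipid-loaded macrophages, read 10.02 on wild-type replicate 1 and 3.58 to 5.93 on the other 5 arrays. The list median was -0.01 without that replicate, so it rested on 1 mouse. Pla2g7, a phospholipase carried on lipoproteins, was the member with separated groups, at 7.05, 6.98 and 6.05 against 5.58, 5.59 and 5.58. B cell and plasma cell markers had a median of -0.51 over 11 genes. Their mean level was 4.93 on wild-type replicate 2 and 3.34 to 3.86 on the other 5 arrays, and the median was -0.09 without replicate 2. Wild-type replicate 3 lay below both mates in 10 of these 11 genes. Without it the median was -0.79, with 8 members lower at an unadjusted limma p under 0.05, against 3.92% of all genes. The part of either list in the macrophage differences was not tested.

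Among 26 chemokines and receptors the median was -0.08, with 0 genes past adjustment in limma. Cxcl13 read 8.33, 10.87 and 6.01 in wild type and 5.65, 4.17 and 5.56 in Lats2-CKO liver, a difference of -3.27 ± 1.13 (limma unadjusted p = 0.0148, adjusted p = 1). Its groups did not overlap, but the wild-type values spanned more than the gap to the mutant. Ccl6, made by macrophages and neutrophils, read 8.46, 7.79 and 6.62 against 6.36, 6.20 and 6.65. Ccl5, which attracts T cells, read 7.56, 7.04 and 6.48 against 5.35, 6.88 and 5.70. In both, wild-type replicate 3 alone fell within the Lats2-CKO range.

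**Figure D3:**
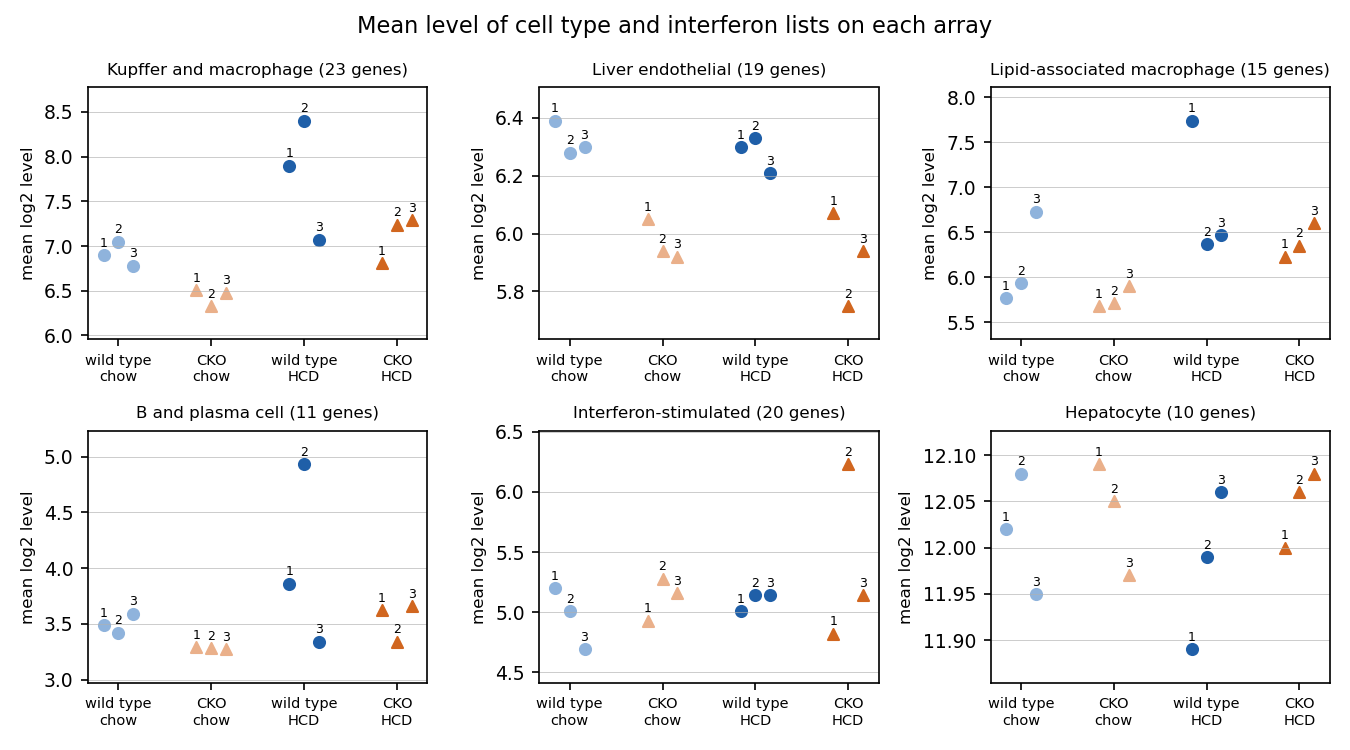
The mean log2 level of each gene list is plotted for all 12 arrays, with circles for wild type, triangles for Lats2-CKO (CKO), pale symbols for chow and dark ones for the high-cholesterol diet (HCD), and the replicate number above each symbol. Wild-type replicate 3 lies inside the Lats2-CKO range for macrophage markers (7.07) but above it for endothelial markers (6.21), while single arrays stand out for lipid-associated macrophage (7.74), B cell (4.93) and interferon-stimulated genes (6.23).

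Markers of the liver endothelium were lower in Lats2-CKO liver whether or not wild-type replicate 3 was used. Of 19 members 17 were lower, with a median of -0.42 against 0.006 over all genes. By limma, 11 had an unadjusted p under 0.05, all lower, against 1.94% of all genes, and 0 passed after adjustment over all genes. In 7 members the groups did not overlap with the mutant lower, against 3.37% of all genes. The median was -0.45 without wild-type replicate 3 and stayed from -0.45 to -0.30 as each high-cholesterol array was left out. Replicate 1 of each genotype had the higher overall median of its group, and between this pair of arrays the list median was -0.28. Between the other 2 arrays of each genotype it was -0.45. The mean level of the 19 genes was 6.30, 6.33 and 6.21 in wild type and 6.07, 5.75 and 5.94 in Lats2-CKO liver, without overlap.

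The separated genes covered receptors, junction proteins and scavengers of this endothelium. Tek, the angiopoietin receptor TIE2, read 5.86, 5.82 and 5.95 against 5.36, 5.40 and 5.56, a difference of -0.43 ± 0.10 (limma unadjusted p = 0.00155, adjusted p = 1). Stab1, a scavenger receptor of the sinusoids, read 6.91, 7.14 and 6.80 against 6.46, 6.43 and 6.6, a difference of -0.45 ± 0.11 (limma unadjusted p = 0.00223, adjusted p = 1). Pecam1, a junction protein of all endothelia, read 6.37, 7.03 and 6.35 against 5.70, 6.0 and 6.16, or -0.63 ± 0.19. In each of these all wild-type arrays lay above all Lats2-CKO arrays, replicate 3 included. Kdr, the main VEGF receptor, read 7.60, 7.36 and 7.22 against 7.17, 6.41 and 6.71. Eng, a co-receptor for BMP and TGF-beta ligands, read 7.99, 8.59 and 7.94 against 7.64, 7.50 and 7.66. Oit3, a secreted protein of liver endothelium, read 6.46, 6.88 and 6.35 against 6.18, 5.55 and 6.07. Fcgr2b, an inhibitory Fc receptor dense on sinusoidal endothelium, read 8.55, 8.54 and 8.60 against 8.52, 7.69 and 7.97. Lats2-CKO replicate 1 was the nearest to wild type for Fcgr2b and Kdr. Aqp1, a water channel of endothelium and bile ducts that is in none of the lists, was one of the genes with the smallest p, at 7.22, 7.51 and 7.09 against 6.46, 6.34 and 6.63.

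**Figure D4:**
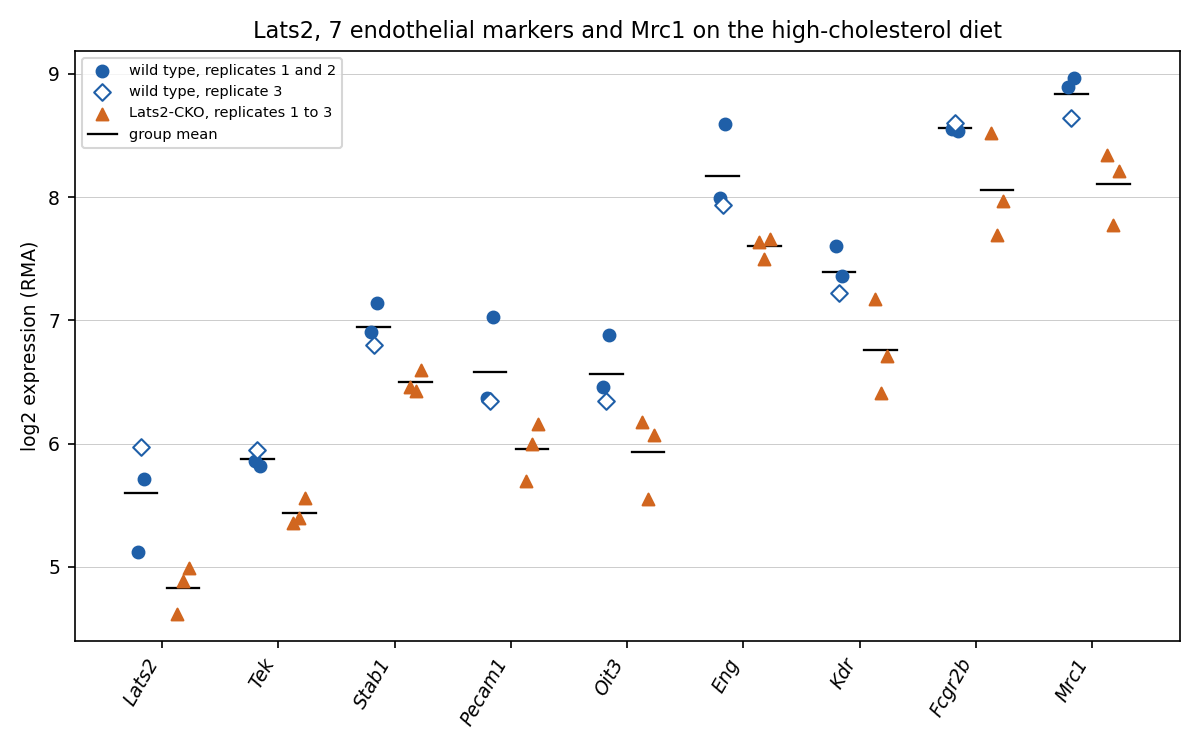
Log2 expression of Lats2, the 7 endothelial markers with separated groups and the shared marker Mrc1 is shown on each high-cholesterol array, with circles for wild-type replicates 1 and 2, open diamonds for replicate 3, triangles for Lats2-CKO and bars for group means. All wild-type symbols lie above all Lats2-CKO symbols of the same gene, from a wide gap in Mrc1 (lowest wild-type 8.64, highest Lats2-CKO 8.34) to a narrow one in Fcgr2b (8.54 and 8.52).

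Angiocrine factors and zonal genes of the endothelium behaved unevenly. Bmp6, the BMP ligand that sets hepcidin, read 4.78, 4.87 and 4.65 against 4.75, 4.17 and 4.21 (limma unadjusted p = 0.0305, adjusted p = 1). Clec4g, a lectin of sinusoidal endothelium, read 10.08, 10.26 and 10.51 against 10.22, 9.34 and 9.75. Both overlapped through Lats2-CKO replicate 1. Wnt2 and Wnt9b, the ligands that pattern the central zone, had differences of 0.03 and -0.08. Lyve1, a hyaluronan receptor, and the factor Gata4 also overlapped. On normal diet, 15 of the 19 markers were lower in Lats2-CKO liver, with a median of -0.34 (-0.37 without wild-type normal-diet replicate 3), and 9 did not overlap with the mutant lower, against 7.36% of all genes. No endothelial marker passed the interaction test in limma.

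Genes of the Hippo pathway other than Lats2 lay near 0. Of 18 measured members 8 were higher and 10 lower, with a median of -0.04, and Lats2 alone had an unadjusted limma p under 0.05. Lats1 differed by -0.10 ± 0.10 and Yap1 by 0.11 ± 0.20. Nf2, the upstream activator merlin, read 5.29, 5.76 and 5.80 against 5.86, 5.91 and 6.02, and Tead1 read 6.24, 6.26 and 6.22 against 6.30, 6.33 and 6.41. In both the mutant values lay above the wild-type values, at differences of 0.31 ± 0.18 and 0.11 ± 0.23. Tead4 read 3.30, 3.26 and 3.13 against 2.97, 3.11 and 3.07, close to the 30th percentile of all values at 3.04.

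Target genes of YAP and TAZ had a median of -0.05 over 19 members, with 11 lower and 8 higher. Lats2 itself is in this list and was its only member with separated groups and the mutant lower. Ccn2, the matrix protein CTGF and a standard readout of YAP, read 5.84, 5.58 and 4.29 against 4.79, 4.22 and 4.19. Its relative Ccn1 read 5.56, 6.12 and 4.44 against 5.17, 3.71 and 4.86. Wild-type replicates 1 and 2 were highest in both genes, and replicate 3 lay in the mutant range. Gadd45b read 6.37, 4.68 and 6.09 against 6.17, 7.37 and 6.63. Targets of p53 had a median of -0.04 over 18 members. Sesn1, a stress-responsive p53 target, read 6.43, 7.24 and 6.35 against 6.16, 6.08 and 6.12, without overlap. Tnfrsf10b, the death receptor for TRAIL, read 3.03, 3.02 and 2.89 against 3.77, 4.15 and 3.48, so the wild-type values were near or below the 30th percentile and the size of the difference is uncertain.

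The enzymes of cholesterol synthesis did not separate the genotypes on this diet. Of 16 measured, 9 were higher and 7 lower, the median was 0.01 and differences ran from -0.18 to 0.51. No member had an unadjusted limma p under 0.05, against 2.93% of all genes. None had separated groups, against 4.07% of all genes with the mutant higher and 3.37% with it lower. Among 16 genes, counts of 0 lie close to these shares. Hmgcs1, which makes the precursor used by HMG-CoA reductase, read 7.72, 8.00 and 8.02 against 8.14, 7.47 and 8.06. Sqle, a rate-limiting step, read 2.81, 2.88 and 2.82 against 2.98, 2.85 and 2.79, all below the 30th percentile. At such levels a difference was not detectable. Sc5d, a late desaturase, came nearest to separation at 9.63, 9.74 and 9.97 against 10.10, 9.93 and 9.95. The SREBP regulators had a median of -0.03 over 11 members.

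Sterol export genes under LXR, the oxysterol receptor, were lower in Lats2-CKO liver in 9 of 12 members, with differences of at most 0.11 upward. The liver's canalicular sterol transporters Abcg5 and Abcg8 read 10.37 to 10.70 and 9.10 to 9.60 over the 6 arrays, with overlapping groups. Pltp, the phospholipid transfer protein of plasma, read 8.54, 9.37 and 8.00 against 7.53, 7.11 and 7.77, a difference of -1.16 ± 0.28 (limma unadjusted p = 0.00176, adjusted p = 1). Mylip, the ligase that degrades the LDL receptor, read 7.87, 7.70 and 7.05 against 6.92, 6.11 and 6.61, or -0.99 ± 0.32. Abcg1, a cholesterol exporter abundant in macrophages, read 7.08, 7.28 and 5.65 against 4.46, 5.88 and 5.99. Pltp and Mylip kept their groups apart, against 3.37% of all genes with the mutant lower, while Abcg1 overlapped through wild-type replicate 3. These 3 were the members with an unadjusted limma p under 0.05, against 1.94% of all genes on the lower side. The median of the 12 was -0.16, and -0.24 to -0.08 as each high-cholesterol array was left out. On normal diet 10 of the 12 were lower, with a median of -0.59 (-0.28 without wild-type normal-diet replicate 3). The macrophage marker mean had the same order of wild-type arrays as Pltp, with replicate 2 highest and replicate 3 lowest, and its part in the sterol genes was not tested.

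Genes of fatty acid and triglyceride synthesis were slightly higher in Lats2-CKO liver in 20 of 21 members, with a median of 0.10. The median was 0.04 without wild-type replicate 1, 0.25 without wild-type replicate 2 and 0.16 without Lats2-CKO replicate 1 or 2. It was 0.24 between the replicates 1 of the genotypes and 0.0 among the other arrays. All genes together had 11528 of 22180 higher. In 5 members the groups did not overlap with the mutant higher, against 4.07% of all genes. By limma, 2 were higher at an unadjusted p under 0.05, against 0.987% of all genes. Mlxipl, the sugar-sensing factor ChREBP, read 9.34, 9.73 and 9.83 against 9.84, 10.02 and 10.11. The desaturase Fads1 read 10.35, 10.65 and 10.60 against 10.90, 10.81 and 10.95. Both differences were under 0.4 log2 units, at 0.36 ± 0.14 and 0.35 ± 0.15. Fads2, the elongase Elovl5 and the fructose enzyme gene Tkfc were the others, at differences of 0.16, 0.23 and 0.11. On normal diet 13 of the 21 were lower in the mutant.

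Of the drug-metabolising cytochrome P450 genes 16 of 19 were higher, with a median of 0.15. On normal diet 16 of the 19 were lower in the mutant, with a median of -0.17 (-0.07 without wild-type normal-diet replicate 3). Cyp2c29 read 11.34, 11.77 and 11.84 against 11.95, 12.22 and 12.22, and its relative Cyp2c37 lay the other way, at 10.49, 10.41 and 9.92 against 9.70, 9.55 and 9.92. Cyp2c55 read 6.08, 6.04 and 6.14 against 7.10, 8.34 and 7.15, without overlap, but its difference of 1.44 ± 0.88 carried a wide error from the fit over all groups. These genes belong to a family of near-identical copies whose signals the probe sets may not separate, so their values are uncertain. Bile acid synthesis genes had a median of 0.01 over 15 members, with none at an unadjusted limma p under 0.05, against 2.93% of all genes. Hepatocyte markers were close to equal, with a median of 0.06 and a mean level of 11.89 to 12.06 in wild type and at most 12.08 in Lats2-CKO liver, with overlap.

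Fibrosis and stellate cell genes were lower in 20 of 22 members, with a median of -0.30. By limma, 2 had an unadjusted p under 0.05, all lower, against 1.94% of all genes. None had separated groups, against 3.37% of all genes with the mutant lower. The wild-type mean level was 5.73, 5.56 and 5.05, and the Lats2-CKO level 5.05, 5.03 and 5.19. Wild-type replicate 3 lay below both mates in 18 of the 22, and without it the median was -0.49, with 9 members lower at an unadjusted limma p under 0.05, against 3.92% of all genes. Wild-type replicate 1 was the highest of the 6 arrays in 13 members, and without it the median was -0.13. On the high-cholesterol arrays of the lower array set, those other than replicate 1 of each genotype, it was -0.11. Timp2, a metalloproteinase inhibitor, read 5.98, 5.42 and 5.03 against 4.75, 4.76 and 5.04. Tgfb1, the central fibrogenic cytokine, read 7.15, 7.84 and 6.15 against 5.69, 6.55 and 6.08. Lox, a collagen cross-linking enzyme, was high on wild-type replicate 2 alone at 6.24, with 2.76 to 2.89 elsewhere.

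**Figure D5:**
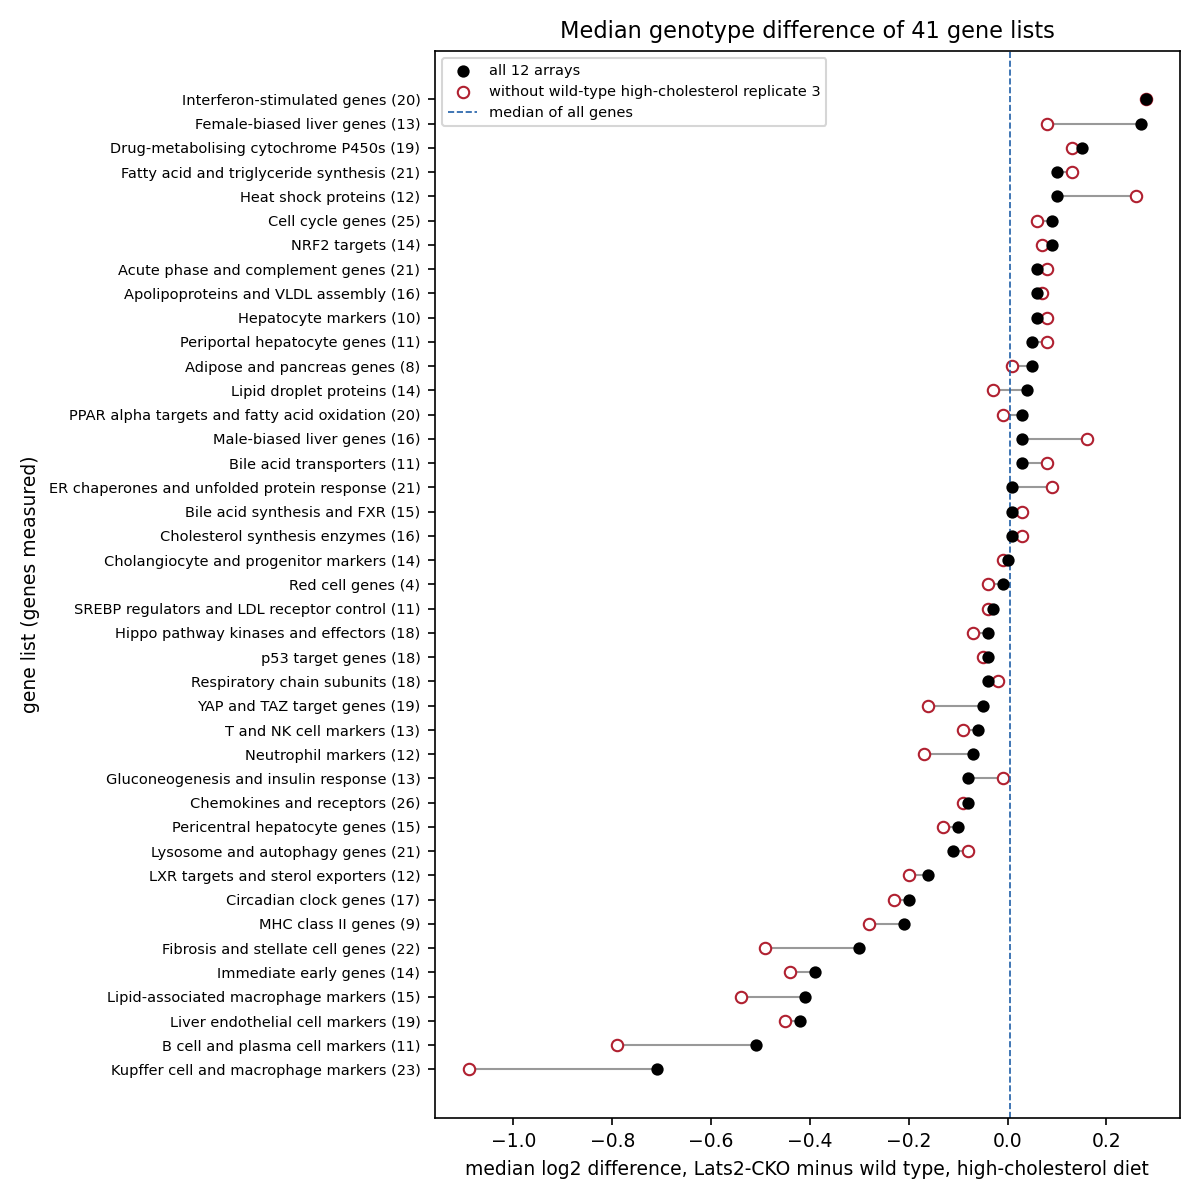
The median log2 difference of each of 41 gene lists is plotted for all 12 arrays (filled) and without wild-type high-cholesterol replicate 3 (open), with the number of measured genes in brackets and the median of all genes as a dashed line. Macrophage markers move from -0.71 to -1.09 when the array is left out, whereas endothelial markers move from -0.42 to -0.45 and most metabolic lists stay near 0.

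Outside the lists, the genes with the smallest p and separated groups had varied roles. Prelid2, a gene of the family of mitochondrial lipid transfer proteins, read 4.22, 3.76 and 3.50 in wild type and 6.67, 6.13 and 6.55 in Lats2-CKO liver, a difference of 2.63 ± 0.50 (limma unadjusted p = 0.00026, adjusted p = 1). The gap between the groups was wide, but wild-type normal-diet replicate 1 also read 6.21, while the other 5 normal-diet arrays read 3.84 to 4.23. When that array was left out of the limma fit, Prelid2 passed with an adjusted p of 0.00154. Anxa13, an annexin of epithelia, read 3.72, 3.25 and 3.46 against 4.26, 4.65 and 4.21. Nudt18, a hydrolase of damaged nucleotides, read 5.76, 5.53 and 5.63 against 6.69, 6.41 and 6.50, and was as high as 6.87 on wild-type normal diet. Zfp750, Spon2 and Fam193b were other named genes on this side, with Klk1b11 and Usp17ld, which have near-identical relatives and are uncertain.

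On the lower side, Gpr137b, a lysosomal membrane protein gene, had the smallest p among the named genes, at 4.98, 5.11 and 3.96 against 3.20, 3.26 and 3.31, a difference of -1.43 ± 0.28 (limma unadjusted p = 0.000349, adjusted p = 1). Anxa3, an annexin of phagocytes, read 5.12, 4.82 and 4.15 against 3.42, 3.67 and 3.89. Replicate 3 lay between its mates and the mutant in both. Zbtb4, a repressor that binds methylated DNA, read 5.20, 5.53 and 5.24 against 4.51, 4.71 and 4.52, with replicate 3 among its mates. Hacd4, an enzyme of fatty acid elongation, read 4.89, 5.47 and 4.41 against 3.66, 4.21 and 3.90, and Slamf6, a lymphocyte receptor, 4.25, 4.05 and 3.57 against 3.11, 3.32 and 3.36. Gpr137b and Anxa3 passed without wild-type replicate 3, and none of these genes passed with all arrays.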

How the data were processed

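Liver RNA was hybridised to single-colour Affymetrix arrays. The log2 values are those the authors deposited, from RMA in Partek 6.6 according to the processing notes of the submitters, and range from 1.94 to 14.2, from which the scale was read. RMA settings are not given in the sources used here, and scanner files were not used here. Of 41345 probe sets, 23521 had 1 gene symbol, 1814 several and 16010 none. The brightest probe set stood for each of 1082 genes with more than 1, leaving 22180 genes. Group means were fitted with limma 3.58.1 (lmFit and eBayes, in R 4.3.3) over all 12 arrays, with Benjamini-Hochberg adjustment over all genes, threshold 0.05, after a check on simulated data. Errors are SE from this fit. The labels state no pairing of replicate numbers, and none was used in the main fit. Deviations of same-numbered arrays had r of 0.17, 0.11 and 0.02, against -0.23 to 0.18 for other pairs. Such values cannot settle whether the numbers pair mice. The comparison, the 41 gene lists and the naming rule were chosen with earlier results of these data known. Named were the Hippo list, up to 10 genes a direction (smallest p, at least 1.5-fold, separated groups), up to 3 members a list, and the widest gaps on wild-type replicate 3. Others were named after their values were seen. Alternatives were other arrays in the fit, blocks, weights, filters, normalisations and each array left out. The lower array set is the 4 high-cholesterol arrays other than replicate 1 of each genotype, together with normal-diet replicate 3 of each genotype. Medians in this set were 3.423 to 3.434, against 3.481 to 3.495 on the other arrays.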

Additional observations from a re-analysis of the deposited data

Results flagged for a closer look

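Capn8, a calpain protease gene, had a genotype difference that depended on the diet. The difference on the high-cholesterol diet minus that on normal diet was -2.70 ± 0.23 (limma adjusted p = 0.00293), and Capn8 was 1 of 22180 genes (0.00451%) to pass this interaction test, where 1247 genes had an unadjusted p under 0.05. On the high-cholesterol diet it read 2.90, 3.15 and 3.15 in wild type and 3.31, 3.08 and 3.37 in Lats2-CKO liver, near the 30th percentile of all values. On normal diet it read 3.71, 3.58 and 3.23 against 6.40, 6.66 and 6.14, so the genotypes were apart on that diet in all 3 mice of each group.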

How the results depend on the processing

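With all 6 high-cholesterol arrays and every normal-diet array or none, 0 genes were called for genotype under each alternative, with 488 to 794 at an unadjusted p under 0.05 in limma, and 901 among the lower array set only. The replicate block gave 0 called genes and 758 at an unadjusted p under 0.05. Leaving out each array in turn gave 0 to 22 called genes and 438 to 1168 at an unadjusted p under 0.05, where 22 and 1168 came without wild-type high-cholesterol replicate 3 and the 1 call without wild-type normal-diet replicate 1 was Prelid2. Further alternatives were added after seeing the data. Without both wild-type arrays numbered 3, 17 genes (1 higher, 16 lower) were called and 1235 had an unadjusted p under 0.05. With array set as a block and replicate 3 left out these were 34 (1 higher, 33 lower) and 1461, and with only the high-cholesterol arrays and replicate 3 left out 0 and 1100. The interaction called 2 genes with array set as a block or a trended and robust prior, 3 with dim genes left out, 15 in the lower array set only, where each normal-diet group has 1 array, and 1 to 2 as each array was left out. The Lats2 difference ran from -1.01 to -0.50, with limma adjusted p of 0.16 to 1. The median of the endothelial list ran from -0.45 to -0.28 and that of the macrophage list from -1.12 to -0.38. The 133 genes in which replicate 3 lay outside its mates were 127 after quantile normalisation and 124 after median centring. Small differences changed sign for Abcc4 (0.03), Avpr1a (-0.02) and Ciart (0.09) in the lower array set, Ciart (0.03) with array weights, Chka (-0.06) with every probe set, Selenbp2 (-0.11 without wild-type replicate 1, -0.14 without Lats2-CKO replicate 2, within -0.14 to 1.16 over the arrays left out) and Fam107a (0.35 whenever wild-type high-cholesterol replicate 3 was left out, within -0.46 to 0.35). Other named genes with differences near 0 also changed sign, Hippo genes among them. Over the alternatives Wwc1 ran from -0.28 to 0.42 and Mob1b from -0.22 to 0.28. Yap1 ran from -0.15 to 0.21 and Amotl2 from -0.49 to 0.29. Fam107a was 0.46 between the replicate 1 arrays of the genotypes. The cause of these changes of sign was not tested. Precision is limited by 3 arrays a group, and the background of dim probes could not be seen.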

Other observations

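Interferon-stimulated genes were high in 1 Lats2-CKO liver. Of 20 members 17 were higher in Lats2-CKO liver, with a median difference of 0.28, and the mean level was 4.82, 6.23 and 5.14 on Lats2-CKO replicates 1 to 3, against 5.01, 5.14 and 5.14 in wild type. Usp18, which shuts off interferon receptor signalling, read 8.74 on replicate 2, and 5.53 to 7.28 on the other 5 arrays. The interferon-induced chemokine Cxcl10 read 7.66 there and 3.26 to 3.77 elsewhere. Mx2, an antiviral GTPase, was the member with separated groups, at 3.78, 3.66 and 4.11 against 4.15, 6.24 and 4.82. Without Lats2-CKO replicate 2 the list median was -0.17.

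Immediate early genes, which respond within minutes to stimuli, were highest on wild-type replicate 2 in 9 of 14 members. Egr1 read 3.50, 6.74 and 3.63 in wild type and 3.31, 3.69 and 3.13 in Lats2-CKO liver, and the growth regulator Myc 4.49, 7.60 and 4.86 against 4.11, 4.69 and 5.14. Nr4a1, an orphan nuclear receptor, had separated groups at 4.91, 5.86 and 3.86 against 3.68, 3.80 and 3.56. Of the circadian clock genes, Cry1 read 3.92, 4.36 and 3.90 against 3.51, 3.53 and 3.70, also without overlap.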
